A study of Mus musculus with 4 samples.

Results

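The lysosome is the acidic organelle in which cells break down proteins, lipids and glycans, and its genes were compared between lenses of Celf1 conditional knockout mice (cKO) and Control mice. The genes were those whose array symbol starts with Atp6v or Atp6ap, or is Cts plus one letter, or stands in a list of 28 lysosomal genes. The symbols matched 127 probes of 67 genes, and 86 probes of 54 genes were above background on at least 2 of the 4 arrays (detection p-value under 0.05). These are 54 of the 11516 genes tested. Of the 54 genes, 7 were called elevated in cKO lenses, and 0 were called reduced, against 6.01% and 5.66% of all genes. The elevated genes were Scarb2, Atp6v1a, Npc2, Atp6v1d, Atp6v0e, Lamp2 and Atp6v1h, with signal 1.53-fold to 1.87-fold higher for 6 of them. Scarb2 was 2.24-fold higher, with its probe above background on only 1 of the Control arrays. Of these, 4 encode subunits of the proton pump, and 0 of the 16 lumenal hydrolases were called. This contrast of counts did not hold in any fit with 1 lens left out.

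CELF1 is an RNA-binding protein of the lens. The cKO mice carried a lacZ knock-in allele of Celf1 beside a floxed allele whose exon 5 is removed by Cre from the Pax6GFPCre line, in which Pax6 regulatory sequence drives Cre. The Control mice had 1 wild-type allele and the same lacZ knock-in, so all mice held 1 lacZ allele, on a mixed background of C57BL/6 and FVB. The authors name no Cre for these Control mice, so that any effect of Cre itself cannot be told apart from genotype. RNA of 1 lens at postnatal day 6 was hybridised to each Illumina MouseWG-6 array, with n = 2 in each group (cKO A and B, Control A and B), and the labels do not say whether the lenses came from separate mice, so that p-values measure only the spread between these samples.

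Lysosomal proteins fall into a few working groups. The vacuolar ATPase (V-ATPase) acidifies the lumen: its V1 sector hydrolyses ATP in the cytosol, and its V0 sector carries protons through the membrane. Cathepsins are proteases, the other lumenal hydrolases cut mainly glycans and lipids (Lgmn and Tpp1 are proteases and Ppt1 removes palmitate from proteins), helper proteins present substrates to them, and membrane proteins such as LAMP1 and LAMP2 line the organelle. In the lens, fiber cells remove their nuclei and other organelles as they mature, and lysosomal enzymes are among the factors studied in that process. The transcription factor TFEB switches on many lysosomal genes through the letters TCACGTGA, which hold the general E-box CACGTG. The Tcfeb probes were not above background on at least 2 arrays, so the gene was not tested.

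Promoters are shown because several of these genes share those letters near their start sites. Windows of 150 bases before to 20 bases after the start site were taken from RefSeq promoter sequences (GRCm38.p6) and are written 5′ to 3′ on the strand of the gene, with each match in capitals. Atp6v0e and Atp6v1a were called elevated, Atp6v0d1 and Lamp1 were not called, and Scarb2 was called elevated and holds neither word in its 300-base promoter. Atp6v0e lies at chr17:26676246-26676415 (+ strand), Atp6v1a at chr16:44139240-44139409 (- strand), Atp6v0d1 at chr8:105566045-105566214 (- strand), Lamp1 at chr8:13159011-13159180 (+ strand) and Scarb2 at chr5:92505638-92505807 (- strand). Capitals mark TCACGTGA in the first 3 and CACGTG in Lamp1.
Atp6v0e: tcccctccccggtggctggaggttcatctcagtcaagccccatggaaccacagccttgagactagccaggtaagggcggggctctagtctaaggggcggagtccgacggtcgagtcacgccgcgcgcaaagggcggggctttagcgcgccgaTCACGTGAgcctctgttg
Atp6v1a: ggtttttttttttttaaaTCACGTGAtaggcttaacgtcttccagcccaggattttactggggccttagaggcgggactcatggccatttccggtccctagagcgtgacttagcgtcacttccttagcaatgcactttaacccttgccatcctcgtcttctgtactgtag
Atp6v0d1: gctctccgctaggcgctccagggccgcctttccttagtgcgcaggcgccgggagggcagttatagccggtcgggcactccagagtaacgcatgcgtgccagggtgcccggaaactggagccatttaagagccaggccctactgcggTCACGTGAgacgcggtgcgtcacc
Lamp1: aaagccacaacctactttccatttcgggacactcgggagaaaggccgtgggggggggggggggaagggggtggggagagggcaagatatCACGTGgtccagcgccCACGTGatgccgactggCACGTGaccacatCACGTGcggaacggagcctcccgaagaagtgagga
Scarb2: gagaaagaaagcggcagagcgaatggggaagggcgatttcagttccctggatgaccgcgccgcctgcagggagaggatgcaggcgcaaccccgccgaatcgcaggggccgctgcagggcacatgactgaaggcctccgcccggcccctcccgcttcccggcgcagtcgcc

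Of the 54 genes, 43 had a promoter sequence of 300 bases. CACGTG was found in 14 of them (32.6%), against 8.09% of all 27025 genes with a promoter sequence and 11.8% of the 8072 tested genes that had one. TCACGTGA was found in 6 of the 43 (14.0%), against 1.12% of all genes and 2.21% of the tested genes. Both words are their own reverse complement, so that 1 search covers both strands, and each TCACGTGA also counts as a CACGTG. The 6 genes with TCACGTGA were Atp6v0e, Atp6v0d1, Atp6v1a, Ctsa, Ctsd and Mcoln1. The 14 genes with CACGTG had a median log2 fold change of 0.26 with 2 called, and the 29 genes without it had a median of 0.32 with 4 called.

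The arrays and the animals differed in ways that run with genotype. Celf1 itself was reduced (limma adjusted p = 0.0108; difference on the log2 scale -1.44 ± 0.20, SE), and its log2 signal in both cKO lenses (7.51 and 7.01) lay below that in both Control lenses (8.78 and 8.62). Both cKO arrays were brighter. The 99th percentile of unnormalized intensity was 3208.7 and 3444.3 on them, against 2158.4 on Control A and 1699.2 on Control B. Of all probes, 16261 and 16925 were above background on cKO A and B, against 14542 and 14180 on Control A and B. Of the 86 lysosome probes, kept for detection on at least 2 arrays, these counts were 83 and 85, against 80 and 73. The bead standard error of these 86 probes, in percent of signal, had a median of 4.461 in cKO A and 4.097 in cKO B. It was 4.401 in Control A and 7.54, the largest, in Control B. Xist, the RNA of the inactive X chromosome, was detected on the cKO arrays alone. Ddx3y, a Y-linked gene, was above background on all 4 arrays, at 6.86 in cKO A, 4.83 in cKO B, 9.06 in Control A and 8.88 in Control B. Any difference in sex cannot be told apart from genotype. Lens fiber markers were above background for all 9 genes listed (Cryaa, Mip and others). In whole lenses, more cells of a type and more RNA per cell cannot be told apart.

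Signal is given as the log2 of background-corrected intensity after quantile normalization, and fold changes are differences of these log2 values, cKO minus Control. A call required a limma adjusted p under 0.05 (Benjamini-Hochberg over all genes), a log2 fold change beyond 0.58 in either direction, and a mean signal above 4.6 on that scale. Over all genes, 6.01% were called elevated and 5.66% reduced. The lysosome genes stood at 12.96% elevated (7 of 54) and 0 reduced. At an unadjusted p under 0.05, 23 of the 54 differed, as did 31.9% of all genes. The cKO lenses both lay above both Control lenses for 28 of 54 genes (51.9%), against 32.6% of all genes, and both lay below them for 6 genes, against 29.7% of all genes. The median log2 fold change was 0.28, against 0.01 over all genes. The counts rest on few lenses: 0 lysosome genes were called elevated without cKO B or without Control B, 1 without cKO A and 8 without Control A, where 0.658%, 0.474%, 2.15% and 6.35% of all genes were called elevated. With log2 values taken before quantile normalization rather than after it, 8 were elevated, Atp6v1e1 being the added gene. Scaling also moved the split, to 11 elevated and 5 reduced when arrays shared 1 median over the probes above background on all 4 arrays, where 667 of all genes were elevated and 2023 reduced.

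**Figure D1:**
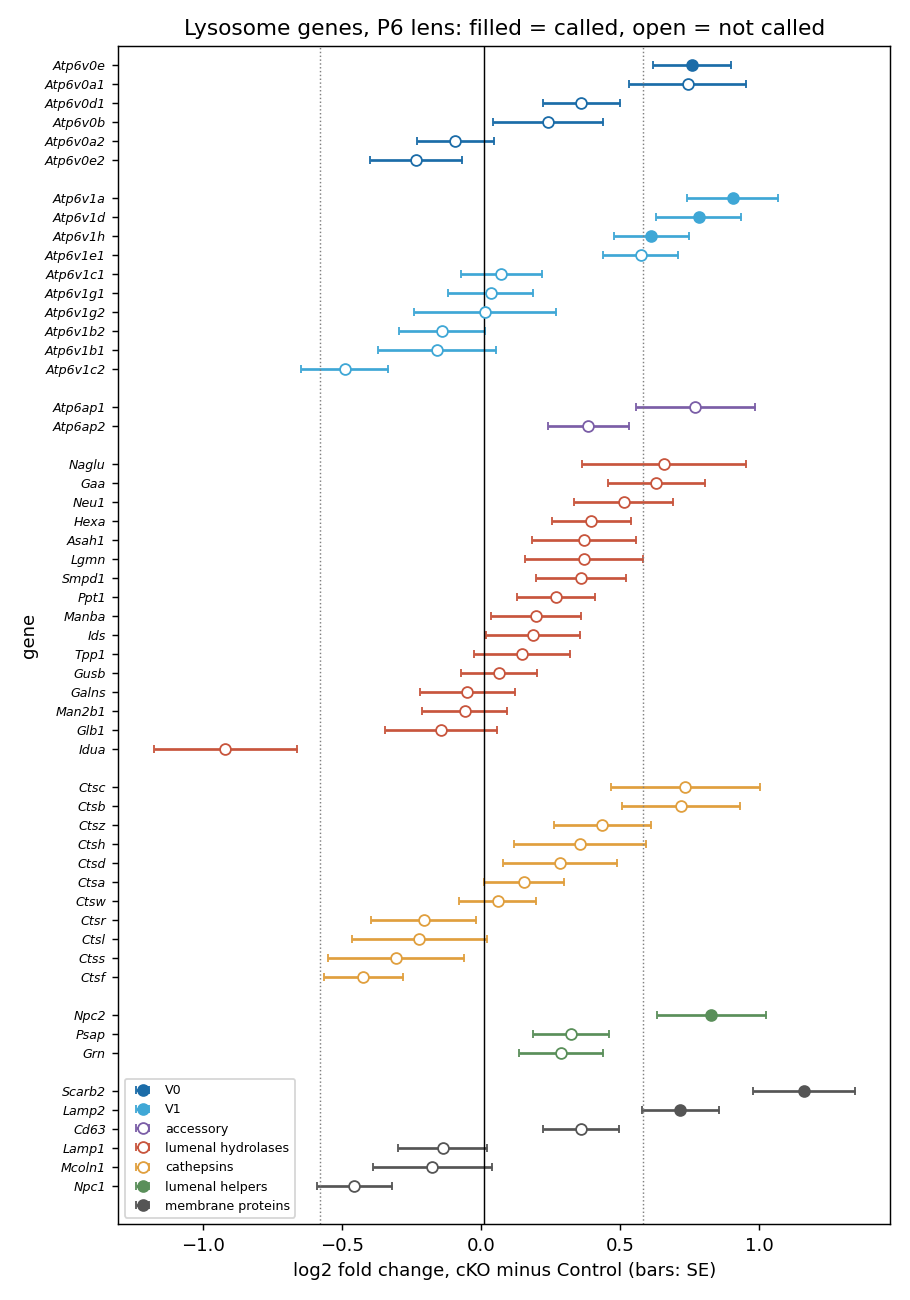
Log2 fold change (cKO minus Control, x axis) of the 54 lysosome genes, grouped by role on the y axis, with bars for the SE of the limma fit; filled points were called, dotted lines mark a change of 0.58 in either direction, and the solid line marks the median of all genes. The 7 filled points all lie to the right, and 0 of the hydrolases and cathepsins are filled.

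The V0 sector was measured with 6 genes, of which 1 was called elevated, against 6.01% of all genes. Atp6v0e encodes the small e subunit of the membrane sector, and its probe lies on chromosome 17 at 26836191 to 26836240 (build not named in the files, as for all probe positions here). Its log2 signal was 9.67 in cKO A, 9.76 in cKO B, 9.02 in Control A and 8.90 in Control B. The groups did not overlap, and the difference was 0.76 ± 0.14 on the log2 scale (SE, adjusted p = 0.0223). Atp6v0a1 encodes an isoform of the a subunit, which forms the proton channel with the c ring. Its change was 0.74 ± 0.21 (adjusted p = 0.0621), of similar size but with a wider spread, and was not called. The member nearest to 0 was Atp6v0a2, another a isoform. Signal was 6.73 in cKO A, 6.83 in cKO B, 6.92 in Control A and 6.83 in Control B, with a change of -0.09 ± 0.14 (adjusted p = 0.682), and its 2 probes gave 0.14 and -0.32. Atp6v0d1 (0.36) and Atp6v0b (0.24) were higher and Atp6v0e2 (-0.23) was lower without passing the test. The symbols Atp6v0a4 and Atp6v0d2 were not above background on enough arrays, and no probe carried the symbol Atp6v0c.

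In the V1 sector, 3 of 10 genes were called elevated, against 6.01% of all genes. Atp6v1a encodes the catalytic A subunit that hydrolyses ATP. Its log2 signal was 6.91 in cKO A, 7.11 in cKO B, 5.96 in Control A and 6.25 in Control B. The groups did not overlap, the difference was 0.90 ± 0.16 (SE, adjusted p = 0.0210), and its 2 probes gave 1.08 and 0.73, the second of them filed under the older symbol Atp6a1. Atp6v1d encodes the D subunit of the central rotor. Signal was 9.91 and 9.76 in cKO A and B and 8.94 and 9.17 in Control A and B. Both cKO lenses were higher, and the difference was 0.78 ± 0.15 (adjusted p = 0.0255).

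Atp6v1h, the third elevated V1 gene, had the smallest SE of the 7 called genes. It encodes the H subunit, which regulates the coupling of the sectors, with a probe on chromosome 1 at 5152256 to 5152305. On the log2 scale it was 9.55 and 9.60 in cKO A and B and 8.97 and 8.96 in Control A and B, which differ by 0.61 ± 0.14 (SE, adjusted p = 0.0348). Atp6v1e1, which encodes the E subunit of the peripheral stalk, lay just outside the fold threshold. Its probe joins 120747954 to 120747982 and 120748857 to 120748877 of chromosome 6, and its signal was 12.15 and 12.21 in cKO A and B and 11.61 and 11.61 in Control A and B. The groups did not overlap, and the difference of 0.573 ± 0.14 (adjusted p = 0.0410) passed the adjusted p but not the fold.

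The remaining 6 V1 genes were not called. Atp6v1b2, the B subunit of most tissues that pairs with the A subunit, was at 10.68 and 10.46 in cKO A and B and at 10.79 and 10.64 in Control A and B, which overlap, with a change of -0.14 ± 0.15 (adjusted p = 0.568). Atp6v1g2, a G isoform of the stalk, was the member nearest to 0 (0.01 ± 0.26, adjusted p = 0.978), at 6.94 and 6.34 in cKO A and B and 6.35 and 6.90 in Control A and B. Atp6v1c1, a C isoform, had probes of opposite sign (-0.10 and 0.25) and a change of 0.07 ± 0.15 (adjusted p = 0.765), at 8.06 and 7.92 in cKO A and B and 7.85 and 7.99 in Control A and B. Atp6v1g1 stood at 0.03 and Atp6v1b1 at -0.16. Atp6v1c2 had the lowest value, -0.49 ± 0.16, and was not called (adjusted p = 0.0839). Among the V1 genes, 4 values lay between 0.57 and 0.90 and the other 6 between -0.49 and 0.07. Atp6v1e2 and Atp6v1g3 were not above background on enough arrays, and no probe carried the symbol Atp6v1f.

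**Figure D2:**
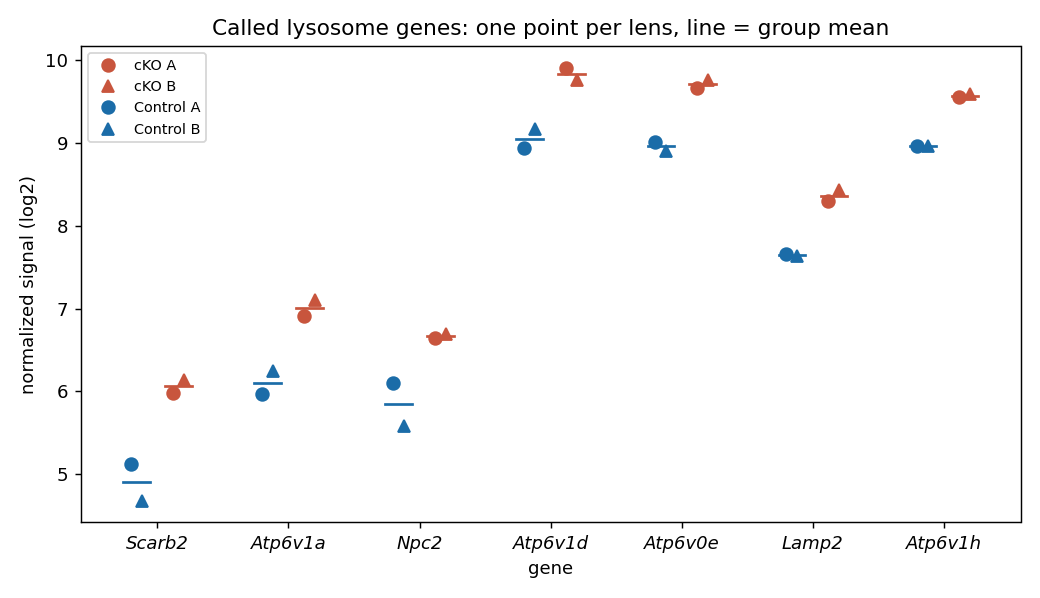
Normalized log2 signal (y axis) of the 7 called genes (x axis), with 1 point for each lens and a line at each group mean. Both cKO lenses lie above both Control lenses for each of the 7 genes, and the Control lenses lie farthest apart for Npc2 (6.11 and 5.58).

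The 2 accessory proteins of the pump, which help its assembly and trafficking, are X-linked. Atp6ap1 was at 11.61 and 11.66 in cKO A and B and at 11.17 and 10.56 in Control A and B. The change was 0.77 ± 0.21 (SE, adjusted p = 0.0602), which missed the threshold, and was 0.46 without Control B and 1.07, called, without Control A. Atp6ap2 was at 0.38 ± 0.14 (adjusted p = 0.124). Both genes were higher in both cKO lenses, as were 32.6% of all genes. The 4 X-linked members (Atp6ap1, Atp6ap2, Lamp2 and Ids) were all higher, with a median of 0.55, against 0.25 for the 50 autosomal members and 0.13 for all 330 X-linked genes tested.

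Of the 16 lumenal hydrolases 12 were higher, as were 5883 of the 11516 genes tested, and 0 were called, against 6.01% of all genes elevated and 5.66% reduced. At an unadjusted p under 0.05, 4 of the 16 differed, against 31.9% of all genes. Both cKO lenses lay above both Control lenses for 9 of them, against 32.6% of all genes, including Gaa, the glycogen-cleaving alpha-glucosidase (log2 fold change 0.63 ± 0.17, adjusted p = 0.0597). Naglu (0.66) and Neu1 (0.51), which trim glycosaminoglycans and sialic acid, were next to it in size. Naglu, not above background on Control B, stood at 0.19 without Control B and 1.19 without Control A, and Neu1 at 0.30 and 0.73, both called without Control A. Hexa, Lgmn, Asah1, Smpd1 and Ppt1 ran from 0.27 to 0.40. With 1 lens left out, Lgmn ranged from 0.07 to 0.66, Asah1 from 0.16 to 0.61 and Smpd1 from 0.20 to 0.52. Hexa ranged from 0.32 to 0.47 and Ppt1 from 0.22 to 0.31. Manba, Ids, Tpp1 and Gusb ran from 0.06 to 0.20, and Galns, Man2b1 and Glb1 from -0.14 to -0.05.

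Idua, which cleaves iduronic acid from glycosaminoglycans, went the other way. On the log2 scale it was 6.27 in cKO A, 5.99 in cKO B, 6.67 in Control A and 7.43 in Control B. Both cKO lenses were lower, and the difference was -0.92 ± 0.26 (SE, adjusted p = 0.0616), the lowest value of the 54 genes and not called. It was -0.55 without Control B and -1.32, called, without Control A. Galns, a sulfatase, was the hydrolase nearest to 0 (-0.05 ± 0.17, adjusted p = 0.868), at 5.47 and 5.07 in cKO A and B and 5.34 and 5.30 in Control A and B. Gla was not above background on enough arrays. Lipa, the acid lipase, is filed under the older symbol Lip1, which the symbol rule did not match. Its fold change on the log2 scale was 0.87 ± 0.28 (adjusted p = 0.0885), and with it the hydrolases numbered 17, with 0 called. It was 0.38 without cKO B and 1.27, called, without cKO A.

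Cathepsins were split in sign, with 7 of 11 higher and 0 called, where 6.01% of all genes were called elevated and 5.66% reduced. Most were dim: Ctsd, Ctsw, Ctss, Ctsr, Ctsa, Ctsl, Ctsh and Ctsc had a mean log2 signal under 6. Of all genes under 6, 4.5% were called elevated, against 7.43% of those at 6 or more. Ctsd, Ctsr, Ctss and Ctsw were above background on only 1 Control array. At an unadjusted p under 0.05, 4 of the 11 differed, a share near the 31.9% of all genes. Ctsc, also called dipeptidyl peptidase 1, had the largest difference, 0.73 ± 0.27 (SE, adjusted p = 0.117), at 5.64 in cKO A, 6.23 in cKO B, 5.51 in Control A and 4.89 in Control B. Ctsb, a broadly expressed cysteine protease, was at 9.36 in cKO A, 9.93 in cKO B, 9.02 in Control A and 8.83 in Control B, with a difference of 0.72 ± 0.21 (adjusted p = 0.0685). The Ctsc value was 0.41 without cKO B, 0.44 without Control B and 1.08 without Control A, and Ctsb was 0.43 without cKO B. Neither gene overlapped between groups, and Ctsz (0.43) was also higher in both cKO lenses. Ctsf was lower in both (-0.42 ± 0.14, adjusted p = 0.0937). Ctsl (-0.22) and Ctss (-0.30) overlapped between groups. Ctsh, Ctsd, Ctsa and Ctsw ran from 0.06 to 0.36, and Ctsr stood at -0.21. Ctse, Ctsg, Ctsj, Ctsk, Ctsm, Ctso and Ctsq were not above background on enough arrays.

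All 3 lumenal helpers were higher in both cKO lenses, against 32.6% of all genes, and 1 was called elevated, against 6.01%. Npc2, which binds cholesterol in the lumen and hands it to NPC1, was at 6.64 and 6.70 in cKO A and B and at 6.11 and 5.58 in Control A and B. The change was 0.83 ± 0.20 (SE, adjusted p = 0.0414). Npc2 was not called with a normexp offset of 50 or in the deposited normalized intensity. Psap, the precursor of the saposins that lift lipids for the hydrolases, was at 0.32 ± 0.14 (adjusted p = 0.157), and Grn, the progranulin precursor, at 0.29 ± 0.15 (adjusted p = 0.239).

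Of 6 membrane proteins, 2 were called elevated, against 6.01% of all genes. Scarb2, also known as LIMP-2, carries the enzyme glucocerebrosidase to the lysosome. Its log2 signal was 5.99 in cKO A, 6.14 in cKO B, 5.12 in Control A and 4.68 in Control B, where its probe was above background on 1 of the 2 Control arrays. Both cKO lenses were higher, and the difference was 1.16 ± 0.18 (SE, adjusted p = 0.0150). The size depends on how dim signal is handled: it was 0.58 with a normexp offset of 50 and 0.71 without background correction. Only 1 probe of Scarb2 was retained. Without the detection filter, which averages in probes of the gene not above background on enough arrays, the change was 0.58 and not called. Lamp2, a heavily glycosylated protein of the lysosomal membrane that also serves autophagy, was at 8.30 and 8.43 in cKO A and B and at 7.66 and 7.64 in Control A and B. The change was 0.72 ± 0.14 (adjusted p = 0.0254). Lamp1, its close relative, was bright and overlapped between groups (-0.14 ± 0.16, adjusted p = 0.592). Cd63, a tetraspanin, was at 0.36 and the ion channel Mcoln1 at -0.18.

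Lamp2 was read with 5 probes, of which 4 were above background on all 4 arrays. The probes at 35758667 to 35758716, 35784144 to 35784193 and 35772731 to 35772780 of the X chromosome gave log2 fold changes of 0.94, 0.77 and 0.75, and these 3 were called in the fit over probes. A probe with no position in the files gave 0.30 ± 0.18 (SE, adjusted p = 0.311). The fifth, which joins 35758599 to 35758608 with 35758609 to 35758648, was not above background in either Control lens. Without it the change of the gene was 0.69 (adjusted p = 0.0205). The files do not say which transcript forms of Lamp2 the probes read.

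Npc1, the membrane cholesterol transporter that receives cholesterol from NPC2, was not called as a gene, at 6.61 and 6.66 in cKO A and B and 7.11 and 7.07 in Control A and B (log2 fold change -0.46 ± 0.14, SE, adjusted p = 0.0708). Its 3 probes lie side by side on chromosome 18. The probe at 12348282 to 12348331 fell (log2 fold change -1.27 ± 0.17, adjusted p = 0.00803 in the fit over probes), at 7.12 and 6.96 in cKO A and B and 8.18 and 8.45 in Control A and B. The neighbour at 12348239 to 12348288, which overlaps it, stood at 0.04 ± 0.15, and the one at 12348331 to 12348380 at -0.14 ± 0.20. The value of the gene rests on 1 of its 3 probes.

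Probes also disagreed in sign within Gusb, Manba and Ctsa, none of which was called. Gusb, the beta-glucuronidase, was at 6.62 and 6.67 in cKO A and B and 6.62 and 6.55 in Control A and B (0.06 ± 0.14, SE, adjusted p = 0.785), with 4 probes from -0.16 to 0.55. The highest probe was filed under the symbol Gus-s, which the rule did not match. The 3 Gusb probes that the rule matched were all below 0. Manba, the beta-mannosidase, was at 5.70 and 5.92 in cKO A and B and 5.74 and 5.50 in Control A and B (0.20 ± 0.16, adjusted p = 0.442), with probes at -0.16 and 0.55. Ctsa, which protects neuraminidase and beta-galactosidase, was at 5.11 and 5.25 in cKO A and B and 4.97 and 5.07 in Control A and B (0.15 ± 0.14, adjusted p = 0.498), with 3 probes from -0.08 to 0.28.

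**Figure D3:**
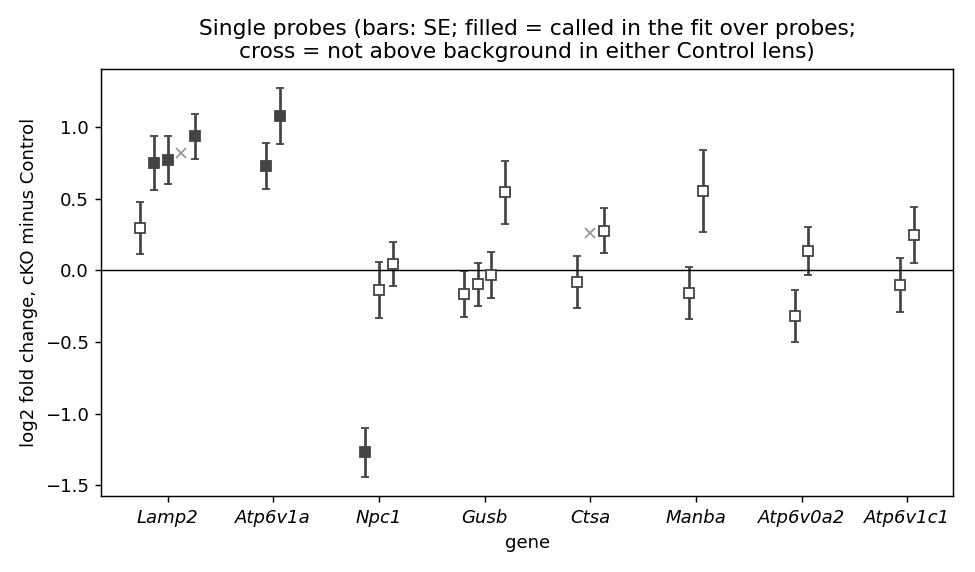
Log2 fold change (cKO minus Control, y axis) of each retained probe of 8 lysosome genes (x axis), with bars for the SE; filled squares were called in the fit over probes, and crosses mark probes not above background in either Control lens. The probes of Lamp2 and Atp6v1a lie on 1 side of 0, whereas 1 Npc1 probe stands at -1.27 beside neighbours at -0.14 and 0.04.

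The pump was compared with the enzymes by count and by median. V0 and V1 together had 4 of 16 genes called and the hydrolases 0 of 16, against 6.01% of all genes called elevated. This contrast of counts did not hold in any of the fits with 1 lens left out, each of which leaves 1 lens in a group. The medians were close, with 0.15 for V0 and V1 and 0.22 for the hydrolases relative to the median of all genes, a difference of -0.08. The V0 and V1 fold changes, without that centring, had a lower quartile of -0.10 and an upper quartile of 0.64, against 0.03 and 0.38 for the hydrolases. Per lens, as the median deviation from the Control mean relative to all genes, V0 and V1 minus hydrolases was 0.08 in cKO A and -0.13 in cKO B, against -0.10 in Control A and 0.10 in Control B. The cKO lenses had opposite signs, and the Control values are equal and opposite because they are centred on their own mean. With the cathepsins counted among the hydrolases the difference of medians was -0.041. It was 0.024 without cKO B, 0.035 with the brightest probe of each gene and 0.18 without Control B, and with the accessory genes counted the relative median of the pump was 0.29, above that of the hydrolases. The SD between lenses was 0.14, and no order of the medians is read from these values. Members are not replicates, so no test of the difference is given.

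**Figure D4:**
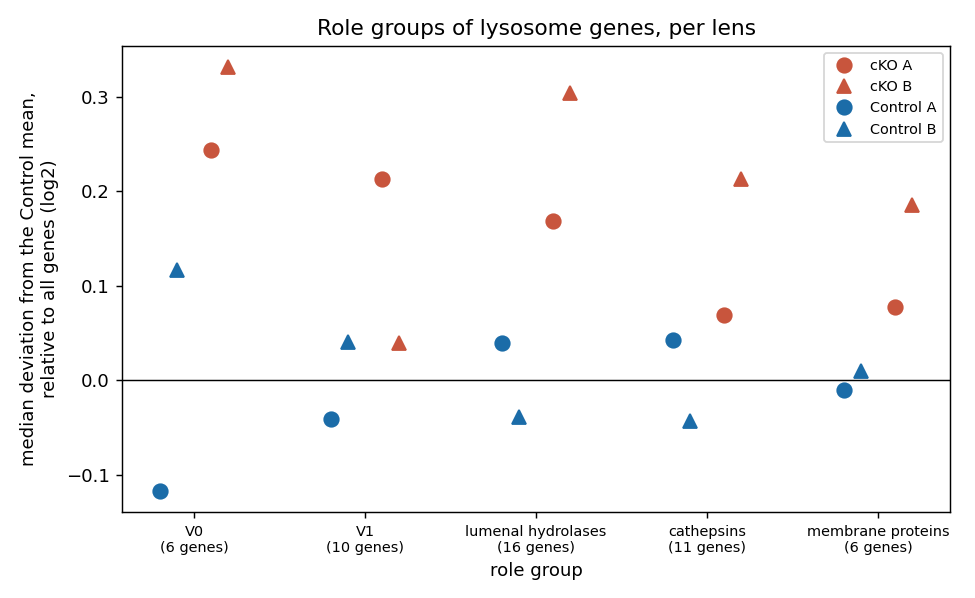
Median deviation from the Control mean, relative to all genes (log2, y axis), of the genes in 5 role groups (x axis), with 1 point for each lens. For V0, the hydrolases, the cathepsins and the membrane proteins both cKO lenses lie above both Control lenses, and for V1 the cKO B lens (0.04) is level with Control B (0.04).

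Lysosome genes outside the rule were read from a list of 60, of which 47 were tested. Of these, 33 were higher, 4 were called elevated (8.51%) and 2 reduced, near the 6.01% and 5.66% of all genes, with a median log2 fold change of 0.14. The elevated genes were Ostm1 (0.72), a partner of a lysosomal chloride transporter, Ctns (0.73), the cystine exporter, Laptm4a (0.67), a small lysosomal membrane protein, and Tmem199 (0.72), an assembly factor of the V-ATPase. Tcirg1 had the largest change of the 47 (1.02 ± 0.26, SE, adjusted p = 0.0524) and was not called. It was at 5.29 and 6.13 in cKO A and B and 4.74 and 4.66 in Control A and B. The reduced genes were Rragc (-0.98), a GTPase of the nutrient sensor on the lysosomal surface, and Gm2a (-0.71), the activator protein that helps HEXA cut gangliosides.

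Markers of other cells moved with genotype in part. Of 15 macrophage markers, a cell type rich in lysosomes, 5 were above background on at least 2 arrays. Of these, Cd68, itself a lysosomal membrane protein, C1qb and C1qc were above background in the cKO lenses alone, which is how they passed the filter, so that only lower bounds can be read. These bounds were at least 1.27-fold for Cd68 and at least 1.23-fold for C1qb. C1qc did not pass the test. Csf1r (-0.11) and Aif1 (-0.07) were not called, and 10 markers, Adgre1, Itgam, Ptprc and Lyz2 among them, were not above background on enough arrays. The deposited normalized intensity summed over the 15 markers was 182.9 and 203.4 in the cKO lenses and 126.6 and 192.9 in the Control lenses, which overlapped, with Control B above cKO A. For the 9 lens fiber markers that sum was 180702 and 170002 in the cKO lenses and 295633 and 298639 in the Control lenses, and for the 6 lens epithelium markers 12383 and 12926 against 17692 and 22323, both lower in both cKO lenses. Such sums weigh the brightest genes, the crystallins, most. On the log2 scale used elsewhere here, the median log2 fold change was -0.12 for the fiber markers and -0.39 for the epithelium markers. The crystallins themselves differed little on that scale, with Crybb1 at -0.05, Crygs at -0.06, Cryba1 at -0.12 and Cryaa at -0.21. Quantile normalization gives every array the same set of values, so that the brightest probes can differ little between arrays. The sums and the log2 values therefore cannot be set against each other.

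Of the 9 lens fiber markers 8 were lower and 1 was called, reduced (Bfsp2, -0.74), and of the 6 lens epithelium markers 4 were lower and 2 were called, reduced (Foxe3, -0.82, and Pdpn, -0.72). Of 5 vessel markers 3 were lower, among them Kdr (-0.61, adjusted p = 0.0507), and 1 was called, elevated (Emcn, 1.15), with a median log2 fold change of -0.06. The blood markers Hba-a1 and Hbb-b1 and the pigment cell marker Pmel were not called, and the retina and muscle markers were not above background on enough arrays. The part of these cell types, of sex and of array brightness in the lysosome values was not tested.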

How the data were processed

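RNA of 4 lenses was measured on Illumina BeadChips. The authors deposited unnormalized and normalized probe intensity with a detection p-value for each array, per the file headers, with rank-invariant scaling in the normalized table. The bead standard error and bead number (signal columns) were also deposited by the authors. Of 45281 probes, 18 with shifted cells were left out. Unnormalized intensity was background-corrected with nec (limma 3.58.1, R 4.3.3, offset 16, negative controls inferred from detection p-values), quantile normalized, in the order of limma's neqc, and then taken as log2 values. Log2 values taken before quantile normalization had been tried first and are given as an alternative. Probes with detection p under 0.05 on at least 2 arrays were retained (16262), named through RefSeq (GRCm38.p6) and averaged per gene. Groups were compared with lmFit and eBayes, two-sided, with Benjamini-Hochberg adjustment over 11516 genes. The authors' model for counts was not used, since the values are intensities. Tables were joined with Python 3.11.15. Where a gene was undetected throughout a group, the bound sets the brighter mean against the higher of the gene's own value and the lowest signal above background on each dim array.

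Members and lists were chosen with earlier results of these data known. Genes given in full are the called ones, the largest change in each role group, those nearest to 0 in V0, V1 and hydrolases, and genes whose probes disagree in sign. Atp6v1b2, Atp6v1e1 and Ctsb are also given in full, outside these criteria. Others are given by value or range. The number of arrays limits the precision, and 2 against 2 lenses cannot give an exact permutation p under 0.333. Alternatives covered the table, background, scaling, detection filter, probe choice, naming, replicate letter and each sample left out.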

Additional observations from a re-analysis of the deposited data

How the results depend on the processing

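Relative to all genes, the medians of V0 and V1 and of the hydrolases stayed above 0 under every alternative run, and the 7 elevated genes stayed higher in each that tested them (Scarb2 was not tested with detection required on all 4 arrays). The 7 genes were picked as elevated on these same arrays, so that staying higher is no separate support. Without the detection filter 1 lysosome gene was elevated (Atp6v1h), with medians of 0.061 (V0 and V1) and 0.12 (hydrolases) and 155 calls over all genes. A normexp offset of 50 gave 5 elevated and 753 calls: Npc2 (0.52), Lamp2 (0.57) and Atp6v1h (0.57) fell under the fold threshold and Atp6ap1 (0.75) was added. Npc2 also lost its call in the deposited normalized intensity (adjusted p = 0.0508). Log2 values taken before quantile normalization, an order that was examined first and kept as an alternative chosen after seeing the data, gave 8 elevated and 1341 calls, against 7 and 1344. Without normalization between arrays, or when arrays shared 1 median over all probes (chosen after seeing the data), 42 were elevated, with 5788 and 5417 calls and a median of all genes raised by 0.56 and 0.52. A shared median over probes above background on all 4 arrays gave 11 elevated, 5 reduced and 2690 calls, and lowered the median of all genes (shift -0.20). In these 3 settings the relative medians were 0.44 and 0.42. The brightest probe gave 0.24 for V0 and V1. Detection on all 4 arrays gave 0.27 and 2 reduced genes (Idua and Npc1), cyclic loess 1 reduced (Idua), and the deposited normalized intensity 0.31 for the hydrolases. Leaving out each lens in turn gave 0 to 8 elevated and 0 to 1 reduced genes, medians of 0.13 to 0.34 (V0 and V1) and 0.16 to 0.32 (hydrolases), a difference of -0.068 to 0.18, which turned to 0.18 without Control B, and 113 to 1315 calls over all genes. Without Control A, 5 of the 7 elevated genes kept the call (Scarb2, Lamp2, Npc2, Atp6v0e and Atp6v1a), and without cKO A only Scarb2 did.

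The letters A and B are not said to pair lenses, and the gap between lens A and lens B of each group had a correlation of -0.01 across genes. With the letter as a replicate block, 11 lysosome genes were elevated, 1 was reduced (Idua) and 1757 genes were called, with unchanged medians of 0.15 and 0.22.

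Several genes that were not called changed sign. Without normalization and with 1 median over all probes, Atp6v0a2 stood at 0.65 and 0.61, Galns at 0.38 and 0.35 and Npc1 at 0.19 and 0.15, while the median of all genes stood at 0.57 and 0.53, above Galns and Npc1. The brightest probe gave -0.098 for Gusb, -0.16 for Manba and 0.043 for Npc1. Naming by symbol gave -0.098 for Gusb, and detection on all 4 arrays -0.16 for Manba. A shared median over probes above background on all 4 arrays gave -0.29 for Ctsa and -0.049 for Manba, with the median of all genes at -0.19. With 1 lens left out, Atp6v1g2 ranged from -0.28 to 0.30 and Galns from -0.23 to 0.13. Atp6v0b (-0.024 to 0.50) and Tpp1 (-0.049 to 0.35) also changed sign in these fits. So did Atp6v1g1, Man2b1, Glb1, Lamp1, Mcoln1, Ctsl, Ctss and Ctsr. The cause was not tested.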
